A study of Drosophila melanogaster with 14 samples.

Results

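The regions described here were marked in chromatin of whole adult flies by an antibody against the HA tag or by an antibody against dCTCF, but not by both. Peaks of 4 deposited lists (HA and dCTCF antibody, each in the deletion line and in wild type) were joined wherever intervals overlapped by at least 1 bp, which gave 960 regions. Of these, 388 held peaks of only one antibody, namely 146 with HA peaks alone (HA-only) and 242 with dCTCF-antibody peaks alone (dCTCF-antibody-only), and 572 held peaks of both. The regions were thus chosen by the measured peak calls themselves, and the strength of those peaks is given below as a description without a test.

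The flies were Drosophila melanogaster adults of the Oregon-R strain, 2 to 3 days old. One line is labelled dCTCFΔ705-733 (the deletion line), and the other dCTCF wild type; the growth protocol names wild-type Oregon R flies for all libraries. The labels do not say where the tagged protein comes from or which promoter drives it. Each antibody (HA, dCTCF, CP190) had 2 replicate libraries per genotype, and 1 mouse library (labelled PI_mouse, for HA and CP190) and 1 rat library (labelled PI_rat, for dCTCF), both of wild-type genotype, were the controls. In ChIP-seq, DNA that an antibody pulls down with its protein is sequenced; the replicates of each antibody in each genotype share 1 list of enriched intervals (peaks). No value therefore has a spread between replicates, no test between lists or groups of regions was possible, and intervals are 95% Wilson intervals that cover counting error over regions only. The lists hold no read counts, so library depth is unknown.

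CTCF is a zinc-finger protein that binds DNA directly and is known for its role at the borders of chromatin domains. In Drosophila, dCTCF is best studied at the boundaries that separate regulatory domains of the bithorax complex, the homeotic gene cluster that specifies the posterior body. CP190 is carried to DNA by many insulator proteins, dCTCF among them, and is also found at many gene starts that lack dCTCF.

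Most one-antibody regions were seen in one genotype. The HA-only regions comprised 71 of the deletion line only, 57 of wild type only and 18 of both genotypes (12.3%, interval 7.94 to 18.6). The dCTCF-antibody-only regions comprised 104 of the deletion line only, 113 of wild type only and 25 of both genotypes (10.3%, 7.10 to 14.8). Among the 572 regions of both antibodies, 547 (95.6%) held peaks of both genotypes and 454 held a peak of all 4 lists. Recurrence in the other genotype entered the same lists that chose the regions, so these shares are descriptions.

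One-antibody regions lay at the bottom of every list. Fold enrichment over the control library, the authors' own value for each peak, ran from 3.01 to 12.0 (median 5.30) at the 89 one-antibody peaks of the deletion HA list, where the 534 other peaks had a median of 53.7. In the wild-type HA list the 75 one-antibody peaks ran from 2.02 to 6.09 (median 2.36), beside a median of 13.7 for the other 552. The dCTCF-antibody peaks were close together, from 1.93 to 3.21 (median 2.21) at 129 peaks of the deletion list and from 1.92 to 3.72 (median 2.20) at 141 peaks of the wild-type list. The medians of the other peaks in those lists were 11.5 (deletion) and 15.2 (wild type).

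No one-antibody peak was in the strongest 60% of its list. When each list was divided into 5 equal parts by fold enrichment, the first 3 parts of every list held 0 of them. The weakest part held 72 of 125 deletion HA peaks (57.6%) and 68 of 126 wild-type HA peaks (54.0%). For the dCTCF antibody it held 104 of 130 deletion peaks (80.0%) and 112 of 140 wild-type peaks (80.0%). Regions of one antibody were also narrower, with a median width of 476.5 bp (HA-only) and 678.5 bp (dCTCF-antibody-only), beside 1437 bp for regions of both antibodies, although joining more peaks widens a region by itself. Single peaks in the part of each list at or below the best place of any one-antibody peak, compared after the values were seen, had no common direction. One-antibody peaks had median widths of 437 bp (deletion HA) and 539 bp (wild-type HA), beside 598 bp and 556 bp for peaks of regions of both antibodies. For the dCTCF antibody they had 770 bp (deletion) and 588 bp (wild type), beside 573 bp and 563 bp.

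**Figure D1:**
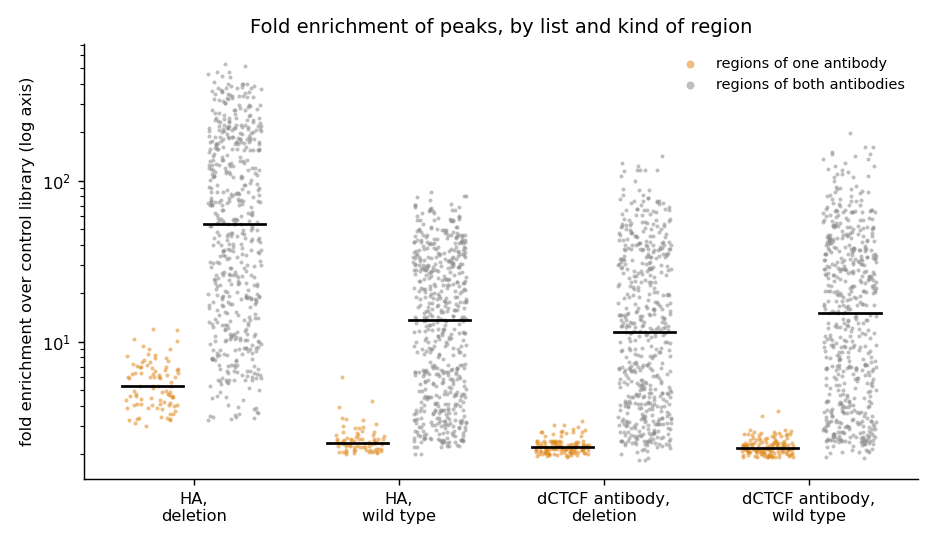
Fold enrichment over the control library (log axis) of every peak in the 4 lists, with peaks of one-antibody regions in orange to the left of peaks of regions of both antibodies in grey; black lines are medians. The orange points stay at or below 12.0 in the deletion HA list and at or below 6.09, 3.21 and 3.72 in the wild-type HA, deletion dCTCF and wild-type dCTCF lists.

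The number of dCTCF-antibody-only regions depended on where the lists end. The irreproducible discovery rate (IDR) is low for a peak that ranks consistently high in separate peak calls. All peaks of the deletion HA list had a global IDR under 0.01, whereas the other 3 lists ran up to 0.05. Among one-antibody peaks, 70 of 129 in the deletion dCTCF list (54.3%), 127 of 141 in the wild-type dCTCF list (90.1%) and 31 of 75 in the wild-type HA list (41.3%) had a global IDR above 0.01. Under a limit of 0.01 for every list, 156 HA-only and 73 dCTCF-antibody-only regions were found.

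Few regions sat close to the rule. The nearest peak of the other antibody was a median of 49.5 kb away from HA-only regions and 44.1 kb from dCTCF-antibody-only regions, and it was within 1000 bp at 3 of 143 HA-only and 12 of 242 dCTCF-antibody-only regions. Just outside the overlap, a wild-type dCTCF-antibody peak inside CG9171 (2L 5772227 to 5772688, place 656 of 700 by fold enrichment) ended 20 bp from a deletion HA peak. The wild-type dCTCF-antibody peak at gol, which encodes the ubiquitin ligase goliath (2R 25084181 to 25085064), lay 301 bp from a deletion HA peak, and that at CG8858 (2R 12198666 to 12199012) lay 315 bp from one. For HA-only regions the smallest gap was 431 bp, at a wild-type HA peak between Pex7 and hry (3L 8672731 to 8673082), followed by 746 bp at CG15358 (2L 1882372 to 1883335) and again 746 bp between d4 and sxc (2R 5300348 to 5302330). Just inside it, each region was described by its largest overlap between an HA and a dCTCF-antibody peak. The smallest of these values was 235 bp (X 14909975 to 14910435, in Flo2 and CG14406). It was followed by 247 bp at CG11050 (2L 6610588 to 6611186) and at Capr (3L 18672049 to 18672643). At 17 of the 572 regions of both antibodies, no single genotype had both, so that an HA peak of one genotype met a dCTCF-antibody peak of the other.

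CP190, which took no part in the choice of regions, divided the HA-only regions by genotype. A deletion CP190 peak overlapped 60 of the 146 HA-only regions (41.1%, 33.4 to 49.2) and a wild-type CP190 peak 57 (39.0%, 31.5 to 47.1). Over all 960 regions the shares were 49.9% with a deletion CP190 peak and 53.9% with a wild-type CP190 peak. Of the 71 HA-only regions of the deletion line, 11 (15.5%, 8.88 to 25.7) carried a deletion CP190 peak and 10 (14.1%, 7.83 to 24.0) a wild-type CP190 peak. Of the 57 HA-only regions of wild type, 43 (75.4%, 62.9 to 84.8) carried a deletion CP190 peak and 41 (71.9%, 59.2 to 81.9) a wild-type CP190 peak. The intervals of these HA-only classes lay far apart in both CP190 lists. The 18 HA-only regions of both genotypes were between them, with CP190 at 6 (33.3%, 16.3 to 56.3) in each list.

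The contrast was as large in windows of equal width, an alternative chosen after the values were seen. Within 250 bp to each side of the strongest summit, a CP190 peak of the same genotype was found at 11 of 71 HA-only regions of the deletion line and at 41 of 57 of wild type, the counts given by whole regions. HA and CP190 libraries were set against the same mouse control library, and the part of this in the result was not tested. Limiting the lists to their strongest 50% left none of these regions. It made 7 others HA-only in the deletion line, 6 of them (85.7%) with CP190, because the weaker peaks of the other antibody were removed.

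CP190 was more evenly spread over the genotype classes of dCTCF-antibody-only regions. A deletion CP190 peak was present at 95 of 242 (39.3%, 33.3 to 45.5) and a wild-type CP190 peak at 86 (35.5%, 29.8 to 41.8). In the deletion line only, 36 of 104 (34.6%, 26.2 to 44.2) had a deletion CP190 peak and 32 (30.8%, 22.7 to 40.2) a wild-type one. In wild type only, 48 of 113 (42.5%, 33.8 to 51.7) had a deletion CP190 peak and 44 (38.9%, 30.5 to 48.2) a wild-type one. In both genotypes, 11 of 25 (44.0%) and 10 of 25 (40.0%) did. These intervals overlapped one another throughout.

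Regions of both antibodies carried CP190 more often, but not when only their weaker members were considered. A deletion CP190 peak was present at 324 of all 572 (56.6%, 52.6 to 60.6) and a wild-type CP190 peak at 374 (65.4%, 61.4 to 69.2). In a comparison chosen after the values were seen, 131 of these regions had their strongest peak no higher in its list than the best one-antibody region, which stood at 61.2% of the list length. Of the 131 weaker regions, 47 (35.9%, 28.2 to 44.4) had a deletion CP190 peak and 43 (32.8%, 25.4 to 41.3) a wild-type CP190 peak. Their intervals overlapped those of both one-antibody kinds. The 131 were not matched in strength, with a median best place at 70.1% of the list length. That median was 90.8% for HA-only and 88.9% for dCTCF-antibody-only regions.

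The same comparison was made inside each list, among peaks at or below that place. One-antibody peaks were still the weaker ones there, so strength was not matched. Their median fold enrichment was 5.30 beside 9.04 (deletion HA) and 2.36 beside 3.35 (wild-type HA). For the dCTCF antibody it was 2.21 beside 2.86 (deletion) and 2.20 beside 2.81 (wild type). In the wild-type HA list, 49 of 75 one-antibody peaks (65.3%, 54.1 to 75.1) met a deletion CP190 peak, beside 58 of 169 peaks of regions of both antibodies (34.3%, 27.6 to 41.8). With the wild-type CP190 list the counts were 47 of 75 (62.7%, 51.4 to 72.7) and 53 of 169 (31.4%, 24.8 to 38.7). In the deletion HA list, one-antibody peaks met a deletion CP190 peak at 17 of 89 (19.1%, 12.3 to 28.5), beside 39 of 153 (25.5%, 19.2 to 32.9), and a wild-type CP190 peak at 16 of 89 (interval 11.4% to 27.2%), beside 49 of 153 (32.0%, 25.2 to 39.8). Both pairs of intervals overlapped. For the dCTCF antibody the intervals overlapped in both genotypes, with 36.4% beside 28.5% for deletion CP190 at deletion peaks and 39.0% beside 32.8% for wild-type CP190 at wild-type peaks.

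**Figure D2:**
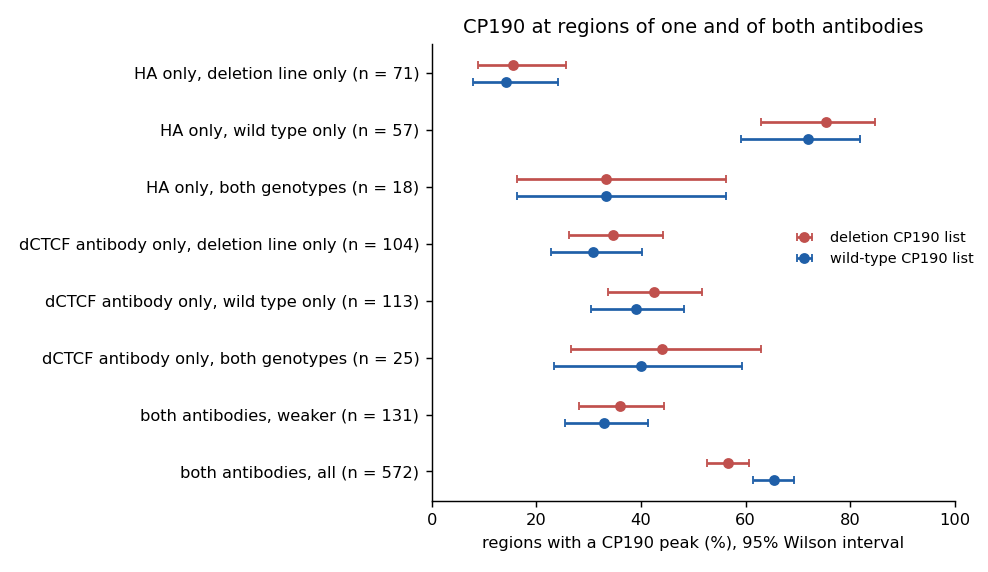
Share of regions (%) that overlap a CP190 peak, with 95% Wilson intervals, by kind of region and genotype in which its HA or dCTCF-antibody peaks were called; red, deletion CP190 list, and blue, wild-type CP190 list. HA-only regions of the deletion line (15.5% and 14.1%) lie left of all dCTCF-antibody-only classes, and those of wild type (75.4% and 71.9%) lie right of them.

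Where CP190 was present it was mostly called in both genotypes, at one-antibody regions as over all regions. Of all 960 regions, 443 had CP190 in both, 36 in the deletion line only, 74 in wild type only and 407 in neither. Of HA-only regions, 56 had CP190 in both, 4 in the deletion line only, 1 in wild type only and 85 in neither. Of dCTCF-antibody-only regions, 81 had CP190 in both, 14 in the deletion line only, 5 in wild type only and 142 in neither. The wild-type-only case was thus rare at one-antibody regions (6 of 388), as it was at the 131 weaker regions of both antibodies (2), whereas 68 of all 572 regions of both antibodies had CP190 in wild type only. The single HA-only region of this sort lay inside Eip74EF, an ecdysone-induced transcription factor gene (3L 17590883 to 17591169), with a weak CP190 peak at place 2408 of 2517. The 5 dCTCF-antibody-only regions were at CG8858, kst, Argk1, Ald1, and CG6125 with Atx2.

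CP190 peaks at one-antibody regions were found in all strengths. Of the CP190 peaks at HA-only regions, 45 of 60 in the deletion list (75.0%) and 40 of 57 in the wild-type list (70.2%) were in the stronger 50% of that list. At dCTCF-antibody-only regions the counts were 55 of 95 (57.9%) in the deletion list and 45 of 86 (52.3%) in the wild-type list, near the 50% that holds over each list. At regions of both antibodies the shares were 63.0% (deletion) and 68.4% (wild type). Summits of HA-only regions lay a median of 59.5 bp from the deletion CP190 summit and 47 bp from the wild-type one. At dCTCF-antibody-only regions these distances were 179 bp and 171.5 bp, and at regions of both antibodies 33.5 bp and 21 bp.

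**Figure D3:**
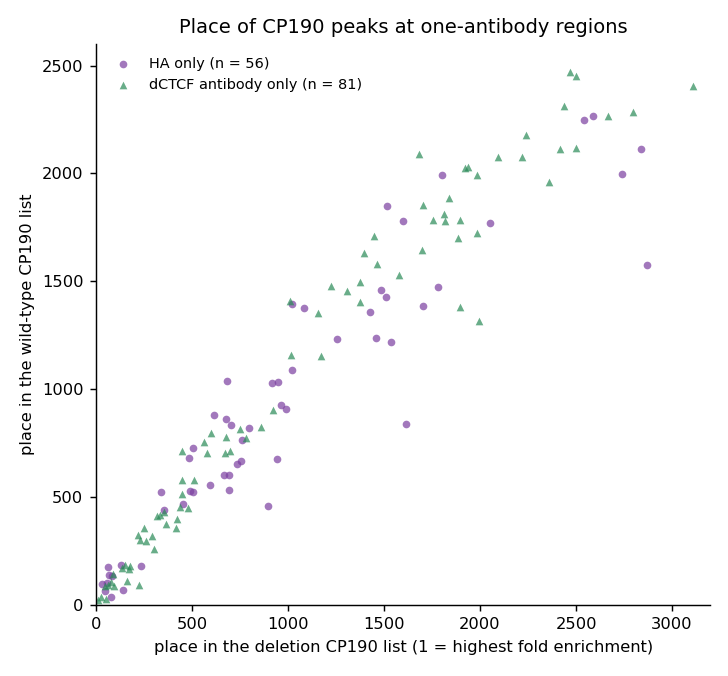
Place by fold enrichment of the strongest CP190 peak at each one-antibody region with CP190 in both genotypes, deletion list (3164 peaks) on the x axis and wild-type list (2517 peaks) on the y axis; place 1 is the strongest peak. The 56 HA-only (circles) and 81 dCTCF-antibody-only regions (triangles) spread over most of both lists, from place 12 (deletion) and 22 (wild type) at Atg8a and BTBD9; both CP190 lists share the mouse control library.

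The 3 strongest CP190 peaks at HA-only regions, in each CP190 list, all belonged to regions of wild type. The highest in the deletion CP190 list was at jdp, which encodes a J-domain protein (3R 30526668 to 30527751), with 93.2-fold CP190 enrichment (place 32 of 3164) in the deletion line and 49.0-fold (place 98 of 2517) in wild type. The wild-type HA peak there was among the weakest of its list, with 2.06-fold enrichment at place 622 of 627, and its summit lay 645 bp from the deletion CP190 summit. Between CG34342 and Lkr, the leucokinin receptor gene (3L 5511720 to 5512324), CP190 held place 46 in the deletion line and 64 in wild type, and HA was 2.50-fold in wild type. In Pepck2, which encodes a phosphoenolpyruvate carboxykinase (2R 18528468 to 18529126), CP190 held place 60 in the deletion line and 101 in wild type. In scrib, a cell polarity gene (3R 26566047 to 26567081), CP190 held place 77 in the deletion line and 38 in wild type, the wild-type place being the best of any HA-only region. Between CG1077 and Osi1 (3R 6170766 to 6171210), CP190 held place 143 in the deletion line and 68 in wild type. An HA-only region of the deletion line at Galphai (3L 6979954 to 6980358) had CP190 at place 65 in the deletion line and 177 in wild type. Its deletion place was thus ahead of those of scrib and of CG1077 and Osi1.

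At dCTCF-antibody-only regions, CP190 reached places still higher. The peak at Atg8a, an autophagy gene, and BTBD9 (X 10768043 to 10768869) had 110-fold CP190 enrichment in the deletion line (place 12) and 80.5-fold in wild type (place 22), with a dCTCF-antibody peak of 2.32-fold in the deletion line only. In UQCR-Q, a subunit gene of respiratory complex III (3L 17474810 to 17475137), CP190 held place 28 in the deletion line and 37 in wild type, and the dCTCF-antibody peak was 2.15-fold in wild type only. In CG6023 (X 18319749 to 18320148) the CP190 places were 49 in the deletion line and 86 in wild type, and in CG2121 (2R 8396625 to 8396864) they were 50 and 25. At Ald1, which encodes the glycolytic enzyme aldolase (3R 26260708 to 26261678), the wild-type CP190 list had its peak of place 5, with 111-fold enrichment and a summit 830 bp from the dCTCF-antibody summit. No peak of the deletion CP190 list overlapped the Ald1 region. Deletion CP190 peaks beside the region were not looked up, and the lists do not give the CP190 level where no peak was called.

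The strongest HA-only regions of the deletion line carried no CP190 in either genotype. They lay inside atos (2R 11627969 to 11628647, 12.0-fold, place 424 of 623), inside lncRNA:CR43253 (3L 18083366 to 18083836, 11.8-fold, place 426) and inside Ypel and asRNA:CR44894 (X 10206097 to 10206523, 10.4-fold, place 442). The 3 strongest of wild type included a peak on an unplaced scaffold (Un_DS485794v1, 575 to 933, 6.09-fold, place 384 of 627) with CP190 in both genotypes. The next were at drl, which encodes a receptor tyrosine kinase of axon guidance (2L 19190096 to 19190855, 3.35-fold, place 472), without CP190, and at SP1173 (3L 6703268 to 6703876, 3.34-fold, place 474). At SP1173, CP190 held place 70 in the deletion line and 140 in wild type.

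Of the 18 HA-only regions of both genotypes, the one highest in a list was on mitochondrial DNA, at its first bases (M 3 to 1501), with 4.50-fold enrichment in the deletion line (place 578 of 623) and 4.31-fold in wild type (place 431 of 627). The next was inside CG5966 (X 5992169 to 5992513), at place 535 in the deletion line and 445 in wild type, with CP190 at place 669 in the deletion line and 601 in wild type. The following was inside pan, which encodes the TCF transcription factor of Wingless signalling (4 89728 to 90381), at place 514 in the deletion line and 477 in wild type, without CP190.

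Among dCTCF-antibody-only regions of the deletion line, the strongest was at CG6125 and Atx2, the Ataxin-2 gene (3R 15406319 to 15409104, 2.94-fold, place 457 of 648), with CP190 in wild type only. It was followed by regions at Sf3a1 and Irc (3R 17002215 to 17003210, 2.89-fold, place 461) and inside Pgant5 (2L 5072291 to 5073537, 2.83-fold, place 464), neither with CP190. The strongest region of wild type lay 1389 bp from a wild-type HA peak. It was at Fhos, a formin gene (3L 8752846 to 8755036, 3.72-fold, place 443 of 700), without CP190. It was followed by gol, named above (3.48-fold, place 455, with weak CP190 at place 1982 in the deletion line and 1726 in wild type), and by Argk1, the arginine kinase gene (3L 9054683 to 9055643, 2.83-fold, place 494), with CP190 in wild type only.

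The dCTCF-antibody-only regions of both genotypes were the widest of the 6 one-antibody classes, with a median of 1348 bp, beside 1470 bp for regions of both antibodies in both genotypes. The one highest in a list was at chic, the profilin gene (2L 5978845 to 5981201), with 3.21-fold enrichment in the deletion line (place 435 of 648) and 2.24-fold in wild type (place 610 of 700), and CP190 at place 673 in the deletion line and 706 in wild type. A region of 6359 bp spanned the cytochrome P450 genes Cyp28d2 and Cyp28d1 and CG7742 (2L 5207135 to 5213493), at place 450 in the deletion line and 648 in wild type, without CP190. The next, of 4198 bp (3R 23983407 to 23987604), covered mir-9381, lncRNA:mimi, CG13603 and CG5902 at place 452 in the deletion line and 501 in wild type. The widest HA-only region, named after its width was seen and lying between d4 and sxc, was 1983 bp.

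In the bithorax complex, between Ubx and Abd-B, 3 one-antibody regions were found, all weak and all without CP190. An HA-only region of the deletion line lay inside lncRNA:bxd (3R 16748570 to 16748925, 6.39-fold, place 524 of 623) and another inside MSAmiP and lncRNA:iab8 (3R 16857030 to 16857456, 9.43-fold, place 456). A dCTCF-antibody-only region of wild type lay 9432 bp from the HA-only region in MSAmiP and lncRNA:iab8 (3R 16847243 to 16847597, 2.39-fold, place 570 of 700).

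Distance to genes separated the same HA-only classes. The summit lay within 200 bp of an end of a protein-coding gene at 12 of 70 HA-only regions of the deletion line (17.1%, 10.1 to 27.6) and at 29 of 56 of wild type (51.8%, 39.0 to 64.3). All merged regions on the chromosome arms had 35.4%. Among weak peaks of the deletion HA list, compared as for CP190 above, one-antibody peaks did not stand apart. The counts were 17 of 87 one-antibody peaks (19.5%, 12.6 to 29.1) and 34 of 150 at regions of both antibodies (22.7%, 16.7 to 30.0). In the wild-type HA list they were 34 of 73 (46.6%, 35.6 to 57.9) and 51 of 169 (30.2%, 23.8 to 37.5). Both pairs of intervals overlapped. The HA-only regions of the deletion line were a median of 1565.5 bp from a gene end, those of wild type 199 bp. Of the 70 regions of the deletion line, 39 lay wholly inside a gene, 11 partly in a gene and 20 between genes, and of the 56 of wild type, 19 lay inside, 29 partly in a gene and 8 between genes. Over all merged regions on the arms, 36.7% lay inside, 49.7% partly in a gene and 13.6% between genes. The gene table gives no strand, so starts and ends of genes could not be told apart.

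The CP190 difference was also present away from gene ends. Beyond 200 bp, a deletion CP190 peak was found at 6 of 58 HA-only regions of the deletion line (10.3%, 4.83 to 20.8) and at 18 of 27 of wild type (66.7%, 47.8 to 81.4). Within 200 bp the counts were 5 of 12 (41.7%, 19.3 to 68.0) and 24 of 29 (82.8%, 65.5 to 92.4), with overlapping intervals. The dCTCF-antibody-only regions also differed by distance, with a deletion CP190 peak at 53 of 100 within 200 bp (53.0%, 43.3 to 62.5). Beyond 200 bp it was at 42 of 142 (29.6%, 22.7 to 37.5). Over all merged regions the shares were 60.4% within 200 bp and 44.0% beyond.

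The dCTCF-antibody-only regions lay near gene ends in 100 of 242 cases (41.3%, 35.3 to 47.6), with like shares in the deletion line (42 of 104), in wild type (48 of 113) and in both (10 of 25). The 35.4% of all merged regions lay inside this interval, and the 33.7% (30.0 to 37.7) of regions of both antibodies overlapped it. The weaker regions of both antibodies had 33 of 130 (25.4%, 18.7 to 33.5), whose interval did not overlap. In the deletion dCTCF list alone, 51 of 129 one-antibody peaks (39.5%, 31.5 to 48.2) lay within 200 bp of a gene end, beside 24 of 122 weak peaks of regions of both antibodies (19.7%, 13.6 to 27.6). In the wild-type dCTCF list the counts were 58 of 141 (41.1%, 33.4 to 49.4) and 38 of 131 (29.0%, 21.9 to 37.3), with overlapping intervals. Of the 242, 17 (7.02%) lay between genes. Between genes lay 31 of 143 HA-only regions (21.7%), 14.4% of regions of both antibodies and 13.6% of all merged regions.

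**Figure D4:**
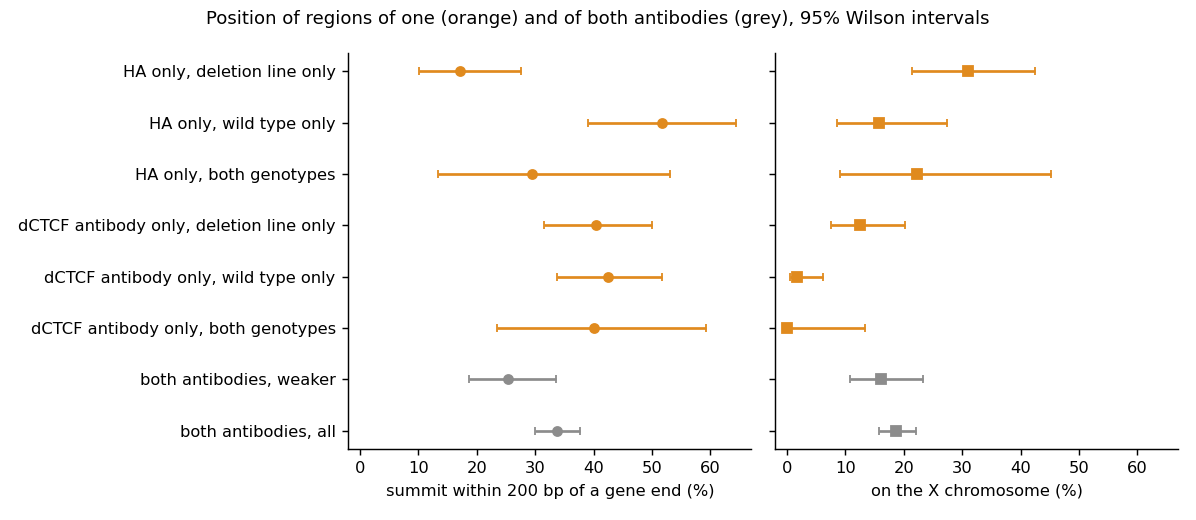
Left, share of regions on the arms (%) whose strongest summit lies within 200 bp of an end of a protein-coding gene, and right, share of regions (%) on the X chromosome, with 95% Wilson intervals; regions of one antibody in orange, regions of both in grey. HA-only regions of the deletion line are at 17.1% on the left and 31.0% on the right, and dCTCF-antibody-only regions of wild type at 42.5% and 1.77%.

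The X chromosome, examined after the values were seen, held few dCTCF-antibody-only regions. It held 35 of 146 HA-only regions (24.0%, 17.8 to 31.5) and 15 of 242 dCTCF-antibody-only regions (6.20%, 3.79 to 9.97), beside 107 of 572 regions of both antibodies (18.7%, 15.7 to 22.1) and 16.4% of all regions. By genotype, the X held 22 of 71 HA-only regions of the deletion line (31.0%, 21.4 to 42.5) and 9 of 57 of wild type (15.8%, 8.54 to 27.4), with overlapping intervals. It held 13 of 104 dCTCF-antibody-only regions of the deletion line (12.5%, 7.45 to 20.2) and 2 of 113 of wild type (1.77%, 0.487 to 6.22). Of the 25 in both genotypes it held 0, which allows a share of up to 12.0% by a limit of 3 counts and up to 13.3% by the Wilson interval.

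The X share was also compared within each list among these weak peaks, which were not matched in strength, as given above. Among peaks of the wild-type dCTCF list at or below the place of 61.2%, the X held 2 of 141 one-antibody peaks (1.42%, 0.390 to 5.02) and 21 of 131 peaks of regions of both antibodies (16.0%, 10.7 to 23.3), with intervals apart. In the deletion dCTCF list the shares were 10.1% (5.98 to 16.5) at one-antibody peaks and 18.7% (12.8 to 26.5) at peaks of regions of both antibodies, with overlapping intervals. In the HA lists they were 29.2% and 20.3% (deletion), and 17.3% and 20.7% (wild type), also with overlapping intervals. The 2 X-linked dCTCF-antibody-only regions of wild type were at inc (X 1512815 to 1513098, 2.36-fold) and hwt (X 12555907 to 12556218, 2.15-fold), and the region at inc had CP190 in both genotypes. The labels do not state the sexes of the flies in any library, including the rat control library, and their part in the X share was not tested.

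Genes of 8 lists were searched for one-antibody regions within 1000 bp. Over all 17684 genes on the arms, 1.25% had an HA-only and 2.43% a dCTCF-antibody-only region that close. Of 8 homeotic genes, 1 had an HA-only region, pb (3R 6708936 to 6709174, 4.75-fold in the deletion line), where CP190 held place 757 in the deletion line and 666 in wild type. Of 295 tRNA genes, 4 had an HA-only region and 14 (4.75%) a dCTCF-antibody-only region, but these 14 belonged to 5 regions, since tRNA genes lie in clusters. The largest cluster was at 2R 13430668 to 13431228, with 6 tRNA genes for isoleucine and leucine. Of 92 cytoplasmic ribosomal protein genes, RpL7 and RpL30 had an HA-only region, and RpL37A and RpL8 were among those with a dCTCF-antibody-only region. At RpL30 (2L 19009085 to 19009460, HA 2.12-fold in wild type), CP190 held place 86 in the deletion line and 135 in wild type. Of 19 heat-shock genes, 1 had a dCTCF-antibody-only region, Hsp83, the Hsp90 gene (3L 3192617 to 3193509), called in both genotypes at 2.75-fold (deletion) and 2.68-fold (wild type). The 15 insulator protein genes, 14 yolk and chorion genes, 115 histone genes and 16 muscle structural genes had none of either kind.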

How the data were processed

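ChIP-seq libraries of HA, dCTCF and CP190 antibodies were represented by 6 deposited peak lists, 1 per antibody and genotype, with both replicates in 1 list per the labels. Each list has 20 columns in the layout of IDR output. The deposited fold enrichment (a ratio over the control library) and the −log10 global IDR of each peak were made by the authors; other columns of p-values were not used here. Per the submitters' processing notes, the builds were dm6 and dm3 and the tools cutadapt, Bowtie2 version 2, Picard and deepTools, with no role given for each. The peak caller and its settings are not given in the sources used here. Signal tracks were not used here.

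Intervals were joined at an overlap of 1 bp or more with Python 3.11.15, pandas 2.3.3 and numpy 2.4.6. Joining gave the same 960 regions with bedtools 2.31.1. In simulated data the antibody kind was recovered at 1000 of 1000 sites. These sites lay far apart and their peaks always overlapped, so only the code of the joining was checked. CP190 was counted at a region when a CP190 peak overlapped it by 1 bp or more. Places rank peaks by fold enrichment within a list, and ties keep file order. Gene names came from a RefSeq gene table of Release 6, with no strand or exons. Named regions were the 3 strongest of each of 6 classes, the 3 with the strongest CP190 per kind and CP190 list, those between Ubx and Abd-B, and the 3 nearest to the rule on each side. Widest regions, the X share, the weaker regions of both antibodies and genes with several regions were chosen after values were seen. The kinds of region and the gene lists were chosen with earlier results of these data known. A planned description of sequence motifs was not run because no genome was used here. Wilson intervals (95%) cover counting error only, since overlapping or neighbouring regions are not independent. One member of the gene lists is not reported here.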

Additional observations from a re-analysis of the deposited data

How the results depend on the processing

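No paired analysis was possible because each antibody and genotype has 1 peak list made from both replicates, and no result comes from a test. For the same reason no replicate could be left out. Of 84 alternative values for 16 results, 57 stayed within the main interval or within 1.5 times the main count, and 27 moved. Values for single genotype classes and for the X were added after the data were seen. A global IDR limit of 0.01 in every list gave 73 dCTCF-antibody-only regions, 5.48% of them in both genotypes. The strongest 50% of each list gave 7 HA-only and 26 dCTCF-antibody-only regions, all of them other regions than those described, since every one-antibody peak was in the weaker 50%. Of the 7, CP190 was at 85.7% in the deletion and 85.7% in the wild-type list, 14.3% lay within 200 bp of a gene end, 0 were in both genotypes and 0 on the X; all 7 were of the deletion line, and no wild-type-only region was left to give a value. Of the 26, CP190 was at 30.8% (deletion) and 46.2% (wild type), 16.0% of those on the arms lay near a gene end, 26.9% were in both genotypes and 11.5% on the X. Counting only the strongest 50% of CP190 peaks gave 30.8% (deletion) and 27.4% (wild type) for HA-only, 22.7% and 18.6% for dCTCF-antibody-only, and 52.6% (wild type) for HA-only regions of wild type, fewer by construction. Requiring the CP190 summit inside the region gave 28.5% (deletion) and 26.0% (wild type) for dCTCF-antibody-only regions. A distance of 1000 bp to a gene end gave 53.1% for HA-only regions (38.6% of the deletion line, 75.0% of wild type) and 69.0% for dCTCF-antibody-only regions. Matching peaks by summits at most 200 bp apart put 6.62% of dCTCF-antibody-only regions in both genotypes; the cause was not tested.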

Other observations

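Some genes held several dCTCF-antibody-only regions, which were looked for after the values were seen. Fhos, a formin gene, held 4, of which 1 was of the deletion line (3L 8780763 to 8781309, place 616 of 648), 2 of wild type and 1 of both genotypes (3L 8772526 to 8774174), and none had CP190. Men, the malic enzyme gene, held 2 (3R 12716650 to 12718684, in both genotypes, and 3R 12719433 to 12720137, in wild type), also without CP190. Pgant5 held 2 of the deletion line (2L 5072291 to 5073537 and 2L 5073782 to 5075152), without CP190. MED19, a Mediator subunit gene, held 2, of which 1 (3L 17845758 to 17846519) had CP190 in both genotypes, at place 2241 in the deletion line and 2179 in wild type. The nearest HA peaks lay 1389, 4592, 1644 and 9881 bp from the Fhos regions, and 2941 and 1488 bp from the Men regions. They lay at least 201811 bp from the Pgant5 regions and at least 140565 bp from the MED19 regions. Regions in one gene share its surroundings and are not independent.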
